A study of Mus musculus with 6 samples.

Results

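The Btg and Tob antiproliferative family was followed through 3 lists of chromatin regions marked by TERT, the catalytic protein of telomerase, in mouse primary neurons. The genes were Btg1, Btg2, Btg3, Tob1 and Tob2, and their regions were chosen by name, as all those whose annotated gene was one of these 5. They held 30 of the 41527 regions on chromosomes 1 to 19, X and Y: 14 higher with BIBR1532, 11 higher with vehicle and 5 common to both. The genes are a protein family, but the family was selected from results of these data, on the score of a Btg2 promoter region and its rank in the BIBR1532 list. Its values are therefore given as a description with no test.

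The neurons were cultured from cortex and hippocampus of C57BL/6 embryos at embryonic day 15 to 18. Per the labels' protocols, 3 samples received 2 µM BIBR1532, a small-molecule inhibitor of telomerase, for 24 h, and 3 received the vehicle dimethyl sulfoxide. TERT was mapped with CUT&Tag, in which an anti-TERT antibody guides a transposase that cuts and tags nearby DNA. No label names the culture or litter of a sample, and the 3 libraries of each condition were merged by the authors. Each condition is therefore 1 pooled measurement, with no spread between replicates and no known depth, and more cells carrying a signal cannot be told apart from more signal per cell. No library without the TERT antibody was analysed here. The direction is likely rather than stated: it follows the order in which the doses stand in the names of the lists. Each region carries a score that is the authors' own. In the BIBR1532 and vehicle lists a higher score is taken to mark a larger difference between the pools. That reading comes from how the named program works, since the files do not explain the score. Scores were read only within a list.

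Btg and Tob proteins share a conserved amino-terminal domain that binds the deadenylases of the CCR4-NOT complex, the enzyme assembly that shortens the poly(A) tails of messenger RNAs and so marks them for decay. Overexpression of family members slows cell division. Btg2, also known as Tis21 or PC3, is a transcriptional target of p53 and an early response gene, and in the embryonic mouse cortex it marks progenitors that divide to give neurons. The Tob proteins additionally bind cytoplasmic poly(A)-binding protein, and Tob1 is known as a restraint on Smad signalling by bone morphogenetic proteins.

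The sequence at the Btg2 start site is shown because a common region covered it and a BIBR1532 region lay just upstream. Btg1 and Tob1 are shown beside it as members whose promoter window held no region. Each window is the RefSeq sequence of GRCm38.p6, the assembly that mm10 represents, from 250 bases before the start site to 50 after it, in the direction of the gene. Capitals in the Btg2 window (chr1:134079106-134079405, minus strand) mark the 119 bases inside the common region.
Btg2: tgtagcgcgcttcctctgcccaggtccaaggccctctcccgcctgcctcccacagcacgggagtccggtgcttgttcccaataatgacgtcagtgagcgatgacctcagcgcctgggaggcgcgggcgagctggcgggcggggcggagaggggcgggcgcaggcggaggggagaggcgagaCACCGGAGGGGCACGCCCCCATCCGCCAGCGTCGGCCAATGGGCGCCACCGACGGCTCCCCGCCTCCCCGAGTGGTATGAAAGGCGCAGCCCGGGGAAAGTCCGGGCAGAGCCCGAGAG
Capitals in the Btg1 window (chr10:96616751-96617050, plus strand) and the Tob1 window (chr11:94211204-94211503, plus strand) mark the motifs searched, which are named further on.
Btg1: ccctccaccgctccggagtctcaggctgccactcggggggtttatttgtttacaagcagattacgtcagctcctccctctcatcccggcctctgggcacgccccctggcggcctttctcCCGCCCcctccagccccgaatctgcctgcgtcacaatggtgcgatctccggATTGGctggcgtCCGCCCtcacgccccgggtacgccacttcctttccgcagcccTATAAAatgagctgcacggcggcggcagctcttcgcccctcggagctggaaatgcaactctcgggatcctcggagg
Tob1: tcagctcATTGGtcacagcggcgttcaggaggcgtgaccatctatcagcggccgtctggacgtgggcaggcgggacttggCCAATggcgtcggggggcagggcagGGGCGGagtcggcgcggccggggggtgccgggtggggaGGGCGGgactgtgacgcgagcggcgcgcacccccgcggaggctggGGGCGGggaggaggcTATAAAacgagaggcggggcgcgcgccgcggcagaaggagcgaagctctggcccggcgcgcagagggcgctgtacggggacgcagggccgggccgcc

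Btg2 was the member with a region shared by both conditions at its start site and a BIBR1532 region just upstream. A common region of 149 bp, at 134079076 to 134079224 on chromosome 1 of mm10, had the class promoter-TSS, given to sequence around a start site, and its centre lay 5 bp from that site. A second common region of 230 bp lay 273 bp into the gene, in intron 1 of 1, and was annotated as a CpG island. The BIBR1532 promoter region, at 134079431 to 134079828, was 398 bp wide and ran from 673 to 276 bases upstream of the start site. It was separated from the common region at the start site by 206 bp. The start site was thus flanked by shared signal on and inside the gene and by BIBR1532 signal upstream.

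The upstream Btg2 region stood at the top of the BIBR1532 list among promoters. Its score was 17.3, rank 1 of 1711 promoter regions and rank 19 of 16153 regions of any class. The median score of BIBR1532 promoter regions was 3.42, the next highest promoter score was 17.27, and 99.9% of the whole list scored lower. These ranks helped to bring the family forward and are a description. The common regions of Btg2 scored 0.0465 and 0.0313, both under the median of 0.11 for the common list. In that list a low score is taken to mark a small difference between the pools. On that reading these regions differed less between the pools than most of the list. The height of the signal is not given, so even sharing cannot be told apart from weak signal in both pools.

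Btg2 also held both other BIBR1532 regions on the far side of its short gene. One of 141 bp, 6.66 kb downstream of the start site at 134072421 to 134072561, scored 11.7, above 97.8% of the list. The other, of 229 bp and 15.4 kb downstream, scored 8.50, above 87.5% of the list. Both were intergenic, and the RefSeq start nearest to the farther one was that of the non-coding gene Gm19497. The vehicle list held 0 regions filed under Btg2, and the nearest vehicle region lay 141170 bp from the upstream Btg2 region. With 3 BIBR1532 and 0 vehicle regions, Btg2 had the largest difference of the 5 members as annotated. Btg3 equalled it at 3 when regions within 1 kb were merged, on a count that includes regions of chromosome 17. On its own chromosome, 16, the difference of Btg3 was 1. With the nearest start of the RefSeq promoter table, which does not list every start, Btg2 and Btg3 each had 2 and Tob2 had -3.

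**Figure D1:**
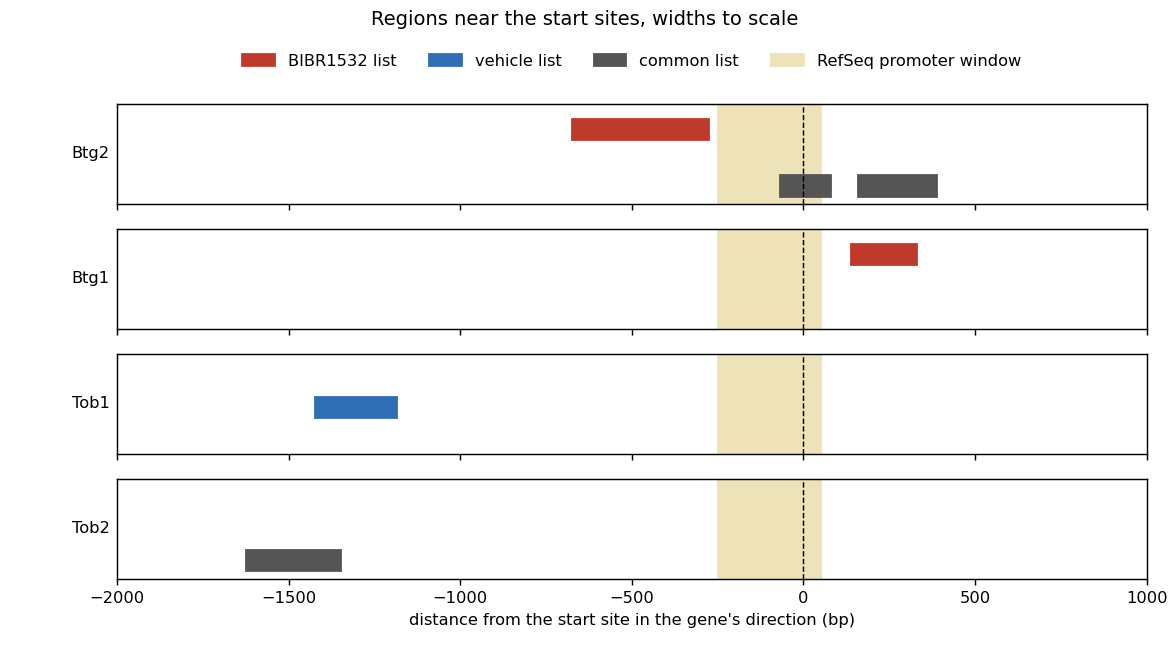
Regions within 2 kb upstream and 1 kb downstream of the start sites of Btg2, Btg1, Tob1 and Tob2, by distance from the start site in bp, drawn to scale and coloured by list; the shaded band is the RefSeq promoter window. At Btg2 a BIBR1532 region lies upstream of 2 common regions, at Btg1 a BIBR1532 region lies inside the gene, and at Tob1 and Tob2 the single region is over 1 kb upstream.

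Parts of this layout were found at many other genes. Of 21887 protein-coding genes, 392 had both a common and a BIBR1532 promoter region, and 457 had both a common and a vehicle promoter region. A common and a BIBR1532 promoter region with no vehicle region of any class were found at 215 genes, and the mirror layout, with vehicle in place of BIBR1532, at 279. At least 3 BIBR1532 regions with no vehicle region were found at 219 genes, and the mirror at 353. All of these criteria together held at 9 genes, Btg2 among them, and their mirror at 32. They were drawn from the Btg2 regions themselves, so this number describes Btg2 and shows nothing of how rare such a gene is. Lying beside or over a common region was ordinary for condition-specific promoters. Of BIBR1532 promoter regions 37.4% (exact 95% interval 35.1 to 39.7) had one within 1 kb, overlap included. Of vehicle promoter regions 39.1% (36.9 to 41.4) did. These intervals cover counting error only.

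Counted by gene, Btg2 was the member with a region of the promoter class. Of the 5 members 1 (Btg2) had a BIBR1532 promoter region, where 6.89% of protein-coding genes had one. None had a vehicle promoter region, where 7.37% of protein-coding genes had one. Again 1 (Btg2) had a common promoter region, where the share over all genes was 14.2%. With any class of region within 10 kb of the start site, 2 members (Btg1 and Btg2) were in the BIBR1532 list, against 19.6% of genes. By the same measure 1 (Tob1) was in the vehicle list, against 20.3%, and 2 (Btg2 and Tob2) were in the common list, against 20.9%. Each of these counts rests on at most 2 genes.

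Btg1, a close relative of Btg2 that helps to keep mouse T cells at rest, had 3 BIBR1532 and 3 vehicle regions and none in the common list. Its nearest region was a BIBR1532 one of 193 bp at 96617140 to 96617332 on chromosome 10, in the 5' UTR within exon 1 of 2. It began 139 bases after the start site, 89 bases beyond the promoter window printed above, and scored 8.66, above 88.4% of its list. The nearest vehicle region lay 32383 bp away.

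The other 5 Btg1 regions were intergenic and lay downstream, where BIBR1532 and vehicle regions were interspersed. The BIBR1532 regions stood 29.4 kb and 74.4 kb from the start site with scores of 8.11 and 6.34. The vehicle regions stood at 32.8 kb, 85.8 kb and 150.4 kb with scores of 11.6, 5.19 and 5.19. The vehicle region at 32.8 kb, in an ERV1 long terminal repeat, scored above 99.0% of the vehicle list. It lay 3181 bp from the BIBR1532 region at 29.4 kb, so neighbouring signal was called in opposite directions. The scores of 6.34 and 5.19 are the most frequent of their lists, shared by 46.8% of BIBR1532 and 50.2% of vehicle regions, and do not rank a region.

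**Figure D2:**
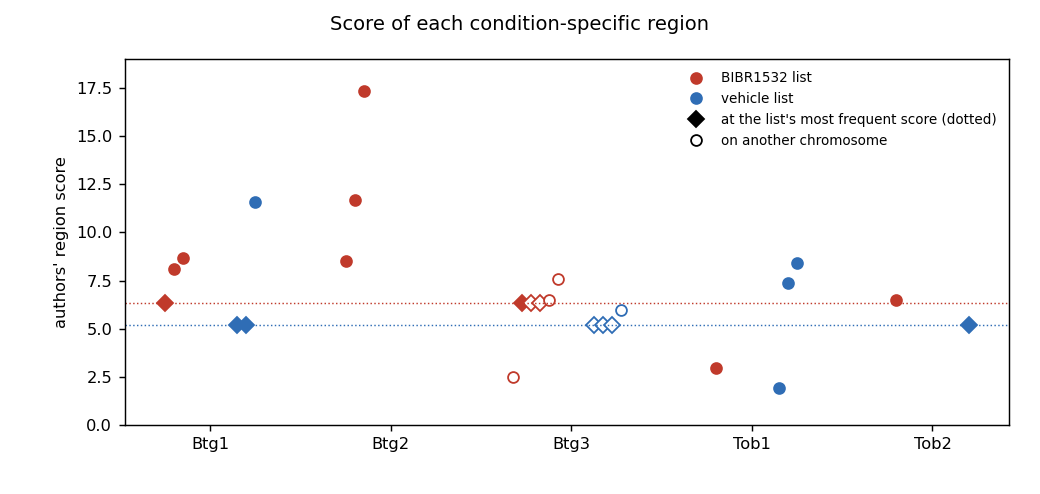
Authors' score of each condition-specific region, by gene and list; diamonds mark the tied, most frequent score (dotted lines, 6.34 for BIBR1532 and 5.19 for vehicle) and open symbols are regions on a chromosome other than that of the gene. The Btg2 region at 17.3 is the highest point, and the highest vehicle point is the Btg1 region at 11.6; scores of the 2 lists are not on a shared scale.

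Most regions filed under Btg3 did not lie at Btg3. Btg3, also called ANA, is the more distant Btg relative and lies at 78359860 to 78377181 on chromosome 16. The lists gave it 10 regions, 6 BIBR1532 and 4 vehicle, but 9 of them were on chromosome 17. The distances in the files place the start site used for those 9 at 50698681 on chromosome 17. At this position RefSeq has Gm7334, a transcribed pseudogene at 50698525 to 50699892. Of the 9 regions, 5 were in the BIBR1532 list, 3 of them overlapping the phospholipase-like gene Plcl2 and 2 the Rab GTPase-activating protein gene Tbc1d5. The 4 vehicle regions all overlapped Tbc1d5. Every one was annotated as an intron of those host genes, 24.1 to 210 kb from the assigned start site. They thus lay within Plcl2 or Tbc1d5 and not at Btg3. Which gene they bear on was not tested.

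The single region on the chromosome of Btg3 was a BIBR1532 one of 136 bp in a B2 SINE repeat. It lay 51.4 kb upstream of the start site and scored 6.34, the most frequent score of its list. Btg3 thus had no common region, no vehicle region on its own chromosome and no region of any list within 10 kb of its start site.

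**Figure D3:**
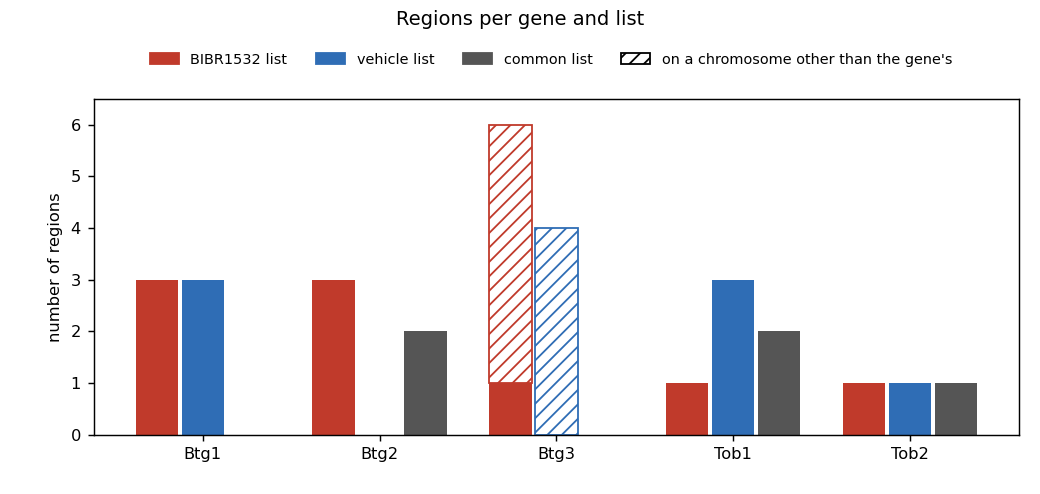
Number of regions per gene in the BIBR1532, vehicle and common lists; hatched parts are regions on a chromosome other than that of the RefSeq gene. The hatched 5 BIBR1532 and 4 vehicle regions of Btg3 are on chromosome 17, and Btg2 has no vehicle region.

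Tob1 was the member with fewer BIBR1532 than vehicle regions, 1 against 3, and it had 2 common regions. It encodes a partner of the Cnot7 and Cnot8 deadenylases. Its BIBR1532 region, 600 bp wide at 94159791 to 94160390 on chromosome 11, lay 51.4 kb upstream of the start site with a score of 2.98. A common region of 696 bp, the widest of the family, followed it after 128 bp. The other common region lay 81.4 kb upstream.

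The vehicle region nearest to Tob1 was 238 bp wide at 94210032 to 94210269 and its centre lay 1304 bp upstream of the start site. Its score of 1.90 was above 6.25% of the vehicle list, so it was among the lowest scores there. It was annotated as intergenic, but the RefSeq Tob1 gene, which includes a predicted transcript, begins 190 bases before it. The other vehicle regions stood 61.3 kb and 65.5 kb upstream, scored 8.44 and 7.35, and overlapped the non-coding genes B230206L02Rik and Gm35338. The BIBR1532 region and the common region of 696 bp overlapped Gm35338 as well. None of these farther regions lay in Tob1 itself. With the nearest start of the RefSeq promoter table, the difference of Tob1 was -1, resting on 1 region.

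Tob2, the paralogue of Tob1, had 1 region in each list. The BIBR1532 region lay 18.4 kb downstream of the start site with a score of 6.51. The vehicle region lay 12.1 kb downstream at the most frequent score of 5.19. The common region, 277 bp at 81859675 to 81859951 on chromosome 15, was annotated as a CpG island 1487 bp upstream of the start site. It scored 0.113, close to the median of its list. No Tob2 region touched the promoter window, whose GC content was 58%, against 72% at Btg2 and a median of 52.7% over 32851 RefSeq promoter windows. The windows of Btg1 (64.7%), Btg3 (75.7% and 57.7%) and Tob1 (75.3%) were not touched either. Any part of GC content in this was not tested.

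**Figure D4:**
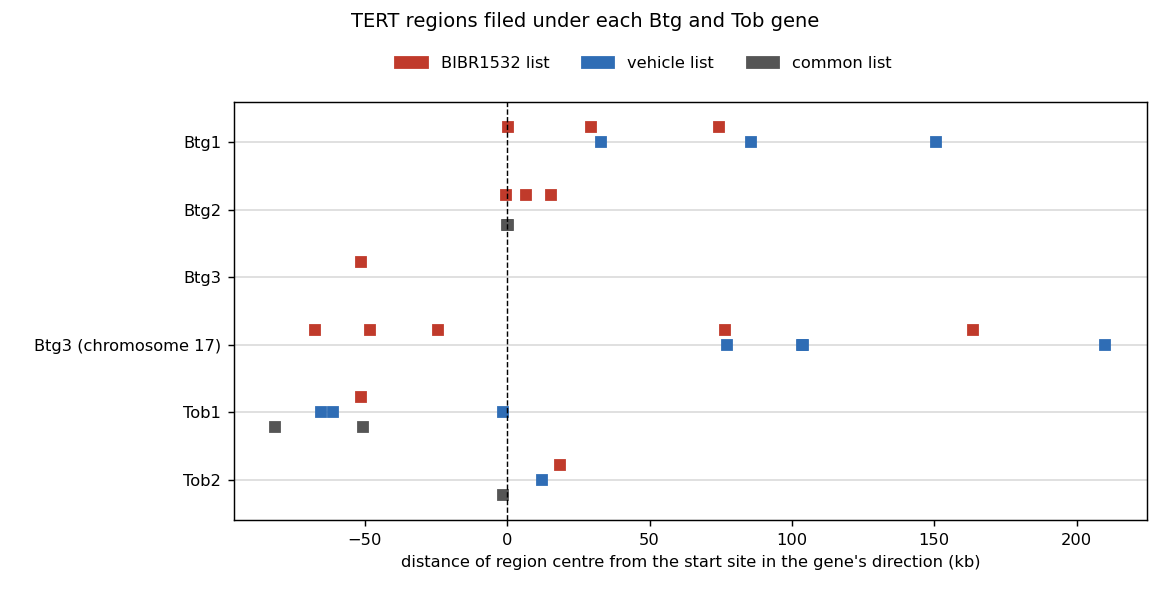
Every region filed under the 5 genes, by distance of its centre from the start site in kb in the direction of the gene and coloured by list; Btg3 regions on chromosome 17 have a row of their own, measured from the start site the annotation placed there. Regions of Btg2 lie within 15.4 kb of its start site, and those of the other genes reach from 51.4 to 210 kb, except for Tob2, which stays within 18.4 kb.

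Taken by class, 17 of the 30 regions were intergenic (56.7%, against 34.5% of all regions), 10 were intronic (33.3%, against 39.7%), 2 were at promoters (6.67%, against 17%) and 1 was in a 5' UTR (3.33%, against 1.89%). Of the 10 intronic regions 1 was on the chromosome of its gene, the common region in Btg2. Within 10 kb of the start site lay 7 regions, and beyond it 23, of which 9 were those filed under Btg3 on chromosome 17. Widths ran from 120 to 696 bp with a median of 270.5 bp, and 3 regions were in repeats. The shares of all regions within 10 kb and in repeats were not computed. Of the 25 condition-specific regions 10 had the tied, most frequent score of their list.

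By direction, BIBR1532 regions made up 14 of the family's 25 condition-specific regions (56%), the Btg2 promoter region that brought the family forward included. Over all 34715 the share was 46.5%, and without the chromosome 17 regions the family had 9 of 16. These shares are a description of the lists, since regions of a gene are not replicates. The differences between BIBR1532 and vehicle counts were 0 for Btg1, 3 for Btg2, 2 for Btg3, -2 for Tob1 and 0 for Tob2. On the gene's own chromosome that of Btg3 was 1 and the others stayed as they were. Of 15344 genes compared, 56 had the same numbers of promoter and other regions in the 3 lists as Btg1, 6 as Tob1 and 147 as Tob2. The 4 that matched Btg3 did so on a count that includes the chromosome 17 regions. Btg2 was matched exactly by none, and 23 genes differed from it by 1 region over these 6 counts. Its counts include the promoter region that brought the family forward. How many genes lack an exact match is not given, so this does not show Btg2 to be rare.

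The promoter windows of the 5 members differed in the motifs they held. The letters searched on both strands were the cyclic AMP response element TGACGTCA, the GC box motif GGGCGG, the CCAAT box and the TATA box motif TATAAA. Further motifs were the E-box spelled CACGTG, the telomere repeat unit TTAGGG and the TCF/LEF motif ATCAAAG. No match overlapped one of another motif. The Btg2 window held TGACGTCA 166 bases before the start site, a motif found in 1.79% of all windows and in no other member. It also held 3 GGGCGG matches, 2 of which overlap each other by a base, and 2 CCAAT matches. One CCAAT, 34 bases before the start site, lay inside the common region, and the cyclic AMP response element lay between the common and the BIBR1532 region.

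The other windows were less distinct. GGGCGG was in a window of every member, though in only 1 of both Btg3 windows, and in 35.7% of all windows. CCAAT was in the windows of all members except Tob2 and in 37.4% of all windows. The shares over all windows were not matched for GC content, which exceeded the median of 52.7% in every member window. TATAAA stood 26 bases before the Btg1 and 47 before the Tob1 start site and is in 13.6% of all windows. ATCAAAG was in 1 of both Btg3 windows, 36 bases after the start site, and in 3.73% of all windows. CACGTG (7.15%) and TTAGGG (10.6%) matched no member. A match is a run of letters and not a binding site, and only the windows were searched.

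Genes that work with the family were counted in lists chosen with earlier results of these data known. Over 40 such genes, 3 had a BIBR1532 promoter region (7.5%), 6 a vehicle one (15%) and 12 a common one (30%), beside the shares of 6.89%, 7.37% and 14.2% over all protein-coding genes. Of 11 CCR4-NOT subunits 6 had a common promoter region, among them Cnot1, the scaffold, Cnot8, a deadenylase that Btg and Tob proteins bind, Cnot6, a deadenylase of a different enzyme class, and the ubiquitin ligase Cnot4. Cnot8 had common regions 17 and 397 bp upstream of its start site and a vehicle region 811 bp upstream with a score of 4.28. Cnot1 had a common region centred 81 bp and a BIBR1532 region centred 372 bp upstream, and the BIBR1532 region scored 1.32. These regions overlapped, at 95807257 to 95807830 (common) and 95807621 to 95808047 (BIBR1532) on chromosome 8. The same bases can thus be filed as common and as higher with BIBR1532. Cnot7, the paralogue of Cnot8, had 1 vehicle region and none at its promoter.

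Of 9 genes for poly(A) binding and further deadenylation 4 had a common promoter region (14.2% of all protein-coding genes did). They were Pabpc1, the cytoplasmic poly(A)-binding protein, Pan2, a catalytic deadenylase subunit, and Cpeb2 and Cpeb4, which bind cytoplasmic polyadenylation elements of messenger RNAs. Cpeb4 also had a BIBR1532 promoter region, with a score of 1.62. Of 6 other partners, such as Prmt1 and the Smad genes, none had a promoter region in any list. The shares over all protein-coding genes were 6.89% for BIBR1532, 7.37% for vehicle and 14.2% for common, so the count of none rests on few genes. Smad1, Smad4, Smad5 and Smad9 together held 3 BIBR1532 and 10 vehicle regions, all of other classes. In the whole series 46.5% of condition-specific regions were BIBR1532 ones. The Smad genes were named after their values were seen, so their split is a description.

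Among 14 cell cycle brakes 1 had a BIBR1532 promoter region (6.89% of all protein-coding genes did), 5 a vehicle one (7.37%) and 2 a common one (14.2%). The BIBR1532 one was the stress-response gene Gadd45g, 830 bp upstream of its start site. The vehicle ones were the cyclin-dependent kinase inhibitor genes Cdkn2d and Cdkn2b, the retinoblastoma relatives Rbl1 and Rbl2, and Trp53, which encodes p53. Rbl2 and Trp53, and the genes without a promoter region named here and above, were named after their values were seen. The Trp53 region, 122 bp wide, lay 856 bp into the gene and scored 1.28, above 0.598% of the vehicle list. Among promoter regions of the partner genes the next farthest downstream lay 130 bp in, at Cnot9. Which start site gave the Trp53 region its class was not tested, so its place among the 5 is uncertain. Cdkn1a, another p53 target and also named after its values were seen, had 1 BIBR1532 region and none at its promoter.

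Whether the cells were neurons cannot be read from TERT regions, which do not measure expression. Over all protein-coding genes 6.89% had a BIBR1532, 7.37% a vehicle and 14.2% a common promoter region. Among 6 neural progenitor markers, Vim and Nes had a BIBR1532 promoter region, none a vehicle one and Vim a common one. The part of progenitor cells in the Btg2 regions was not tested. Among 6 neuronal markers 1 had a BIBR1532, 2 a vehicle and 1 a common promoter region. Of the astrocyte, oligodendrocyte lineage and microglial markers, 4 of each, none had a BIBR1532 or common promoter region, and vehicle ones were found at 1, 1 and 0.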

How the data were processed

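Per the submitters' processing notes, MACS2 2.1.2, Picard, Bowtie2 and CASAVA 1.8 were used, with the build mm10 and no roles given. Per the file headers, the merged libraries of each condition were compared in a step named bdgdiff, and annotatePeaks.pl then assigned classes and genes on mm10. Every region has 1 deposited score, made by the authors, and the scaling of the pools behind it is not stated. The deposited distance to the nearest start site is in bp.

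A characteristics field calls the vehicle samples untreated; the treatment protocol was followed. Groups follow the doses in the sample titles. The BIBR1532 and vehicle lists were decoded from an encoded text form. Regions on other contigs were left out; 41437 of 41527 (99.8%) matched RefSeq by gene ID, and all 5 members had promoter windows. Ranks, gaps, counts, exact (Clopper-Pearson) 95% binomial intervals and motif matches were computed with scipy 1.17.1, numpy 2.4.6 and pandas 2.3.3 in Python 3.11.15, and plots with matplotlib 3.10.9; counting steps were tested on simulated data. The members and lists were chosen with earlier results of these data known. The rule for named genes took all members and up to 4 genes of each partner list with a promoter region, by number of lists, then of regions; Rbl2, Trp53, the markers Vim and Nes, and partner genes with no promoter region were named outside it, after their values were seen. Protein sequences were not used here, so the identity between members was not computed.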

Additional observations from a re-analysis of the deposited data

How the results depend on the processing

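No paired analysis was possible because the lists hold no value per sample, and for the same reason no replicate could be left out. The BIBR1532 share of the family's condition-specific regions ranged from 50% (1 of 2 regions, at least 500 bp) to 75% (3 of 4, within 10 kb, 2 of the 3 at Btg2) over 9 alternatives, against 56% as annotated (exact 95% interval 34.9 to 75.6, for counting error only and too wide to show stability). When a promoter region meant a centre within 1 kb of the start, members with a BIBR1532 promoter region numbered 2, Btg1 being added. Within 5 kb they numbered 2 for the BIBR1532, 1 for the vehicle and 2 for the common list. Among regions of at least 500 bp the members with a BIBR1532 or a common promoter region numbered 0, and partner genes with a common one 6. That width also turned the differences of Btg3 (-1) and Tob1 (1), each resting on 1 region, and left no value for Btg1, Btg2 and Tob2. Within 10 kb there was no value for Btg3 and Tob2. With the nearest start of the RefSeq promoter table, which does not list every start, the difference of Tob2 was -3 over 7 regions in place of 2; the cause was not tested. Counting only regions on the gene's own chromosome was chosen after seeing the data. Depth and signal over background are unknown, so a gene without a region is not shown to lack TERT signal.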

Other observations

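Btg4, the family gene expressed mainly in oocytes, had 1 vehicle region, 1007 bp wide and 23.3 kb downstream of its start site, and none in the BIBR1532 or common list.

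Regions filed under a gene of another chromosome were rare in the lists as a whole. They numbered 111 of 41437 matched regions (0.268%) and named 43 genes. Btg3, with 9, followed Snord14d with 15 and Timm8a1 with 11. The shares were 0.285% in the BIBR1532, 0.292% in the vehicle and 0.162% in the common list.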
